A study of Mus musculus with 2 samples.

Results

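The CDK inhibitors and pocket proteins are 10 genes that act on one switch, the passage of a cell from G1 into S phase. They were taken as a fixed list of 3 CIP/KIP inhibitors (Cdkn1a, Cdkn1b, Cdkn1c), 4 INK4 inhibitors (Cdkn2a, Cdkn2b, Cdkn2c, Cdkn2d) and 3 pocket proteins (Rb1, Rbl1, Rbl2), and each was found by its Ensembl identifier among the 43346 Ensembl genes of the deposited tables. INK4 proteins bind Cdk4 and Cdk6, CIP/KIP proteins bind cyclin-CDK complexes, above all those of Cdk2, and both keep the kinases from phosphorylating the pocket proteins. Pocket proteins that are not phosphorylated hold E2F transcription factors and keep the genes for DNA replication low. Red cell precursors stop dividing as they mature, and in erythroid cells these inhibitors are known for their part in that exit from the cell cycle.

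All values come from 1 group, G1E-ER4 cells that had received 10 nM 17beta-estradiol for 24 h, with 2 libraries numbered as biological replicates. G1E-ER4 is an immortalized mouse erythroid line, male and of strain C57BL/6J per the labels; it lacks its own Gata1 and carries a GATA1 protein fused to an estrogen receptor part, which works only with the ligand bound. Both libraries were made from 100 ng of total RNA after depletion of ribosomal RNA. No untreated or parental library was analysed here, so the values are levels, ratios within a library and replicate differences, with no test of the treatment.

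Expected counts summed to 62080996 in replicate 1 and 41051158 in replicate 2. Although it had fewer counts, replicate 2 had reads on more genes, 19353 against 16115 in replicate 1. All 11 erythroid markers stood at 1 TPM (a gene's length-scaled share of all transcripts in the library) or more in both libraries, among them the globins and Klf1, and their summed level was 2757 TPM in replicate 1 and 3755 TPM in replicate 2. Gata1, also among the 11, stood at 60.05 TPM in replicate 1 and 73.23 TPM in replicate 2. Its reads may come from the introduced GATA1 fusion, so it does not mark the lineage here. Markers of other blood lineages were low: their sums were 0.15 and 1.5 TPM for 7 myeloid genes, 1.04 and 1.21 TPM for 5 mast cell genes, 2.66 and 2.68 TPM for 6 megakaryocyte genes, and 0 and 0.02 TPM for 5 lymphoid genes. Only Itga2b, a megakaryocyte marker, reached 1 TPM in both libraries, at 2.04 and 1.7 TPM. Epor, the erythroid marker with the lowest mean, stood at 3.33 and 2.77 TPM. In bulk RNA, fewer cells that hold a transcript and less of it per cell cannot be told apart. Separate cultures or flasks are not described for the replicates, so the SD between them may be partly technical.

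Of the 10 genes, 7 were transcribed, and Cdkn2c and Cdkn1b stood well above the rest. That is 7 of 10 at 1 TPM or more in both libraries, against 36.3% of 21461 nuclear protein-coding genes; the other 3, Cdkn1c, Cdkn2a and Cdkn2b, had 0 counts in both. By mean TPM the order was Cdkn2c, Cdkn1b, Rb1, Cdkn2d, Rbl2, Rbl1 and Cdkn1a. Neighbours in that order were separated beyond their replicate ranges except for Cdkn2c and Cdkn1b, and for Rbl2 and Rbl1. Cdkn2c lay above Cdkn1b in both libraries by a log2 ratio of 0.18 ± 0.02 (SD, n = 2), although the ranges of their TPM overlapped and counts not divided by length gave -1.20; Rbl1 and Rbl2 changed places between the libraries.

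**Figure D1:**
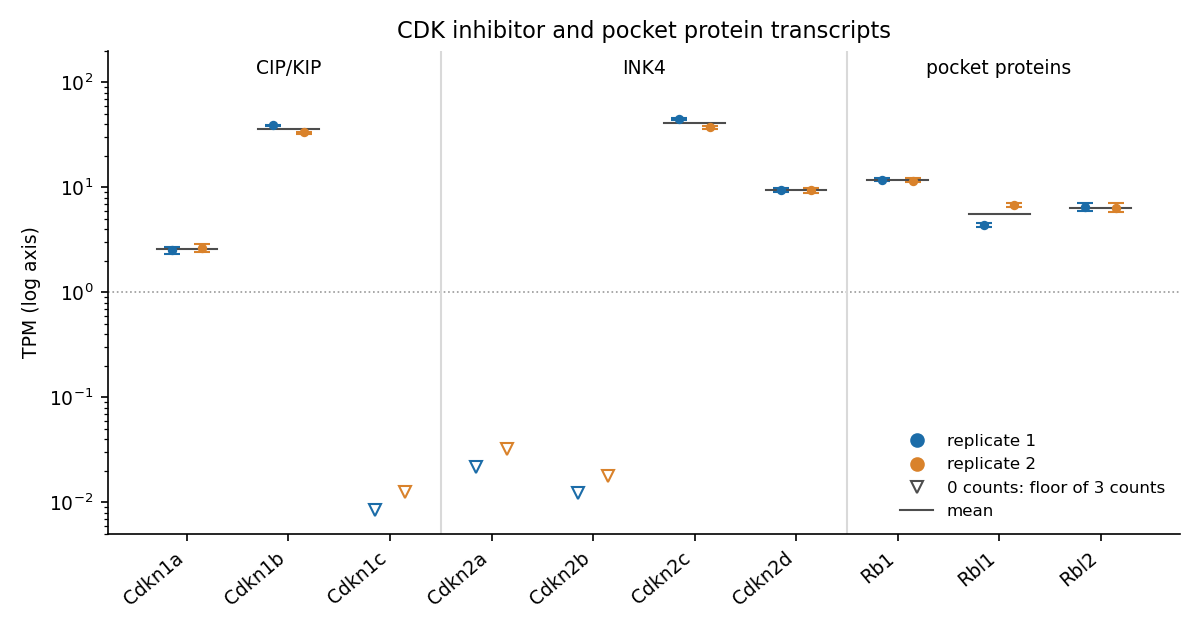
Level of each gene in TPM on a log axis, with 1 point per replicate, vertical bars for the deposited credible bounds and a horizontal line for the mean of the 2 replicates; open triangles stand at the level that 3 counts would have given where no read was counted, and the dotted line is at 1 TPM. Cdkn2c and Cdkn1b stand at the top, between 33.41 and 44.67 TPM, and the triangles of Cdkn1c, Cdkn2a and Cdkn2b lie at or below 0.0322 TPM.

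Among the CIP/KIP genes, nearly all transcript came from Cdkn1b, which encodes p27Kip1, an inhibitor of cyclin E and cyclin A bound Cdk2 that accumulates in many cells leaving the cycle. Cdkn1b (ENSMUSG00000003031.10, chr6:134920401-134925513, plus strand, GRCm38) stood at 39.07 TPM in replicate 1 and 33.41 TPM in replicate 2, a mean of 36.2 ± 4.00 TPM (SD, n = 2) on 23208 and 13527 expected counts. Replicate 1 was higher, and the deposited credible bounds of 38.3 to 39.4 TPM and 32.5 to 33.8 TPM did not overlap. That level exceeded those of 96.8% and 96.3% of nuclear protein-coding genes. Cdkn1b held 93.3 ± 0.910% of the summed CIP/KIP TPM, which was 41.58 TPM in replicate 1 and 36.05 TPM in replicate 2.

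Cdkn1a encodes p21Cip1, the inhibitor that p53 induces after DNA damage. It (ENSMUSG00000023067.9, chr17:29090976-29100727, plus strand) was the lowest of the 7 transcribed genes, at 2.51 TPM in replicate 1 and 2.64 TPM in replicate 2 on 755 and 593 counts. The replicates lay close together, with a mean of 2.58 ± 0.0919 TPM and overlapping credible bounds. Within a library Cdkn1b exceeded Cdkn1a by a log2 TPM ratio of 3.81 ± 0.21, a 14.0-fold difference, or by 4.73 with counts not divided by length. The Cdkn1a level exceeded those of 70.7% and 71.2% of nuclear protein-coding genes.

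Reads of Cdkn1a were assigned to transcripts from 2 annotated starts. These starts come from GENCODE M21, used here for coordinates. Of 3 Cdkn1a transcripts, 0 had the same length there as in the deposited tables. The transcript from the downstream start, Cdkn1a-201, held 79.14% of the gene's TPM in replicate 1 and 90.25% in replicate 2, and 94.5 ± 3.18% of its counts. Its upstream counterpart, Cdkn1a-202, held 20.86% and 9.75% of the TPM on 58.61 and 19.38 expected counts, so its share rests on few reads. Both transcripts encode the same 477 coding bases. The 250 bases before each start are printed here because they precede the starts with most and with few of the Cdkn1a reads; RefSeq on GRCm38.p6 gives them at chr17:29093519-29093768 for Cdkn1a-201 and chr17:29090729-29090978 for Cdkn1a-202, both on the plus strand.
Cdkn1a-201 promoter: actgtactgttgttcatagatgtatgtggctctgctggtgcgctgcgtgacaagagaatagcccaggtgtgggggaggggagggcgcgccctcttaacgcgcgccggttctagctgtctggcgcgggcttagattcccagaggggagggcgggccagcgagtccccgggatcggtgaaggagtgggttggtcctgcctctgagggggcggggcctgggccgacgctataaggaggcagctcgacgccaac
Cdkn1a-202 promoter: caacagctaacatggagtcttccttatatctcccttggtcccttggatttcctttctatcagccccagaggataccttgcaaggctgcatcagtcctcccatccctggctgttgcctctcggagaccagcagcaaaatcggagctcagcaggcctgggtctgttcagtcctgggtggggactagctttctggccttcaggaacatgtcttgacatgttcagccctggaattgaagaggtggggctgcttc
The window of the more used start was 64.8% G and C and that of the less used start 54.0%, against a median of 52.4% over 32851 promoter windows of the same length.

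Cdkn1c, an imprinted gene that encodes p57Kip2, had 0 counts in both libraries (ENSMUSG00000037664.8, chr7:143458339-143461050, minus strand). A floor of 3 counts would correspond to 0.00855 TPM in replicate 1 and 0.0125 TPM in replicate 2. Against that floor, taken per library, Cdkn1b was at least 2682-fold higher and Cdkn1a at least 212-fold higher in both libraries. The surrounding region was not silent. Of 25 measured genes within 500 kb of Cdkn1c, 7 reached 1 TPM in both libraries and 7 had 0 counts in both; Kcnq1ot1, the long RNA transcribed from the imprinting control region of the same domain, stood at 1.51 TPM in replicate 1 and 1.25 TPM in replicate 2. The immediate protein-coding neighbours were low, Kcnq1 at 0.01 and 0.09 TPM and Slc22a18 at 0.09 TPM in both.

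In the INK4 family, Cdkn2c led. It encodes p18Ink4c, which binds Cdk6 and Cdk4. Cdkn2c (ENSMUSG00000028551.10, chr4:109660876-109667189, minus strand) stood at 44.67 TPM in replicate 1 and 37.45 TPM in replicate 2, a mean of 41.1 ± 5.11 TPM (SD, n = 2) on 9951 and 6000 counts. Replicate 1 was higher here too, and the credible bounds of 43.5 to 45.4 TPM and 36.1 to 38.2 TPM did not overlap. The gene held 81.1 ± 1.86% of the summed INK4 TPM, which was 54.17 TPM in replicate 1 and 46.91 TPM in replicate 2.

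Cdkn2d encodes p19Ink4d, an inhibitor of the same kinases that is often found in differentiated cells. It (ENSMUSG00000096472.1, chr9:21288410-21291407, minus strand) stood at 9.50 TPM in replicate 1 and 9.46 TPM in replicate 2 on 2083 and 1415 counts. These values were nearly equal, with a mean of 9.48 ± 0.0283 TPM. Cdkn2c exceeded it by a log2 TPM ratio of 2.11 ± 0.18, or 4.31-fold. Kri1 begins 441 bases beyond its end on the same strand and stood higher, at 26.89 TPM in replicate 1 and 24.41 TPM in replicate 2.

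Cdkn2a and Cdkn2b, neighbours on chromosome 4, gave no reads. DNA of the line was not analysed here, and whether the region is present in its genome was not tested, so the 0 counts and the bounds below describe reads only. Cdkn2a (ENSMUSG00000044303.6, chr4:89274471-89294653, minus strand) encodes p16Ink4a and, from a start further upstream and in another reading frame, p19Arf, which restrains Mdm2. Both of its transcripts, the Ink4a form Cdkn2a-201 and the Arf form Cdkn2a-202, had 0 counts in both libraries, and so had Cdkn2b (ENSMUSG00000073802.4, chr4:89306299-89311039, minus strand), the gene of p15Ink4b. The floor of 3 counts was 0.0218 TPM in replicate 1 and 0.0322 TPM in replicate 2 for Cdkn2a, and 0.0123 and 0.0180 TPM for Cdkn2b. Cdkn2c was at least 1162-fold higher than Cdkn2a and at least 2085-fold higher than Cdkn2b in both libraries.

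Few reads fell on any gene around them. Of 48 measured genes within 1000 kb on either side, 34 had 0 counts in both libraries, 46 had at most 15 counts in both, and 1, Klhl9, reached 1 TPM in both, at 12.43 and 12.22 TPM. Beyond the end of Klhl9, which lies 552 kb from Cdkn2a, 34 measured genes took 18 counts in replicate 1 and 18 counts in replicate 2 in all. Of these genes 24 were protein coding, and they include a cluster of interferon genes. Mtap, the nearest protein-coding gene on the Klhl9 side and a methionine salvage enzyme found in most tissues, had 0 counts in replicate 1 and 9 counts in replicate 2. Dmrta1, the nearest on the other side, had 0 and 6 counts. Over the whole annotation, too, more genes had reads in replicate 2, 19353 against 16115 in replicate 1. No measured gene in this stretch had more than 9 counts in a library.

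**Figure D2:**
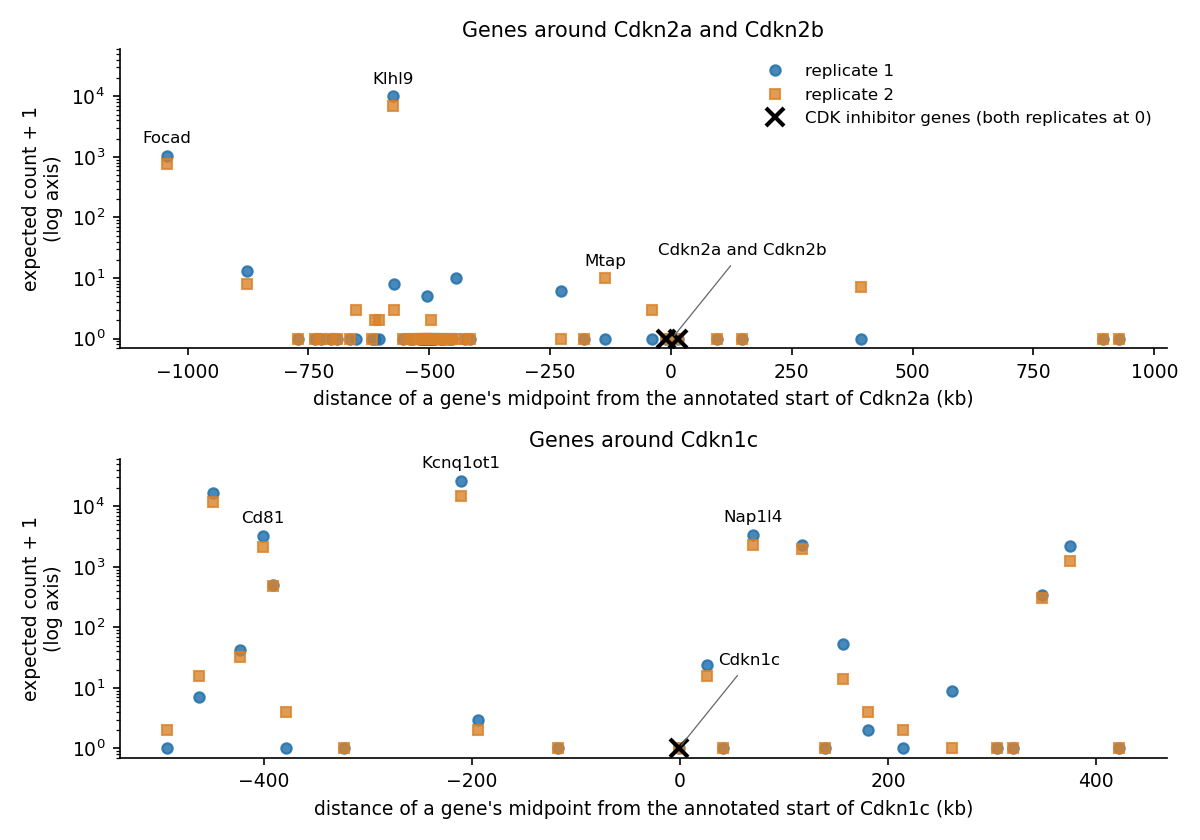
Expected count plus 1 on a log axis for each measured gene near Cdkn2a and Cdkn2b (upper panel) and near Cdkn1c (lower panel), against the distance of the gene's midpoint from the annotated start in kb, with circles for replicate 1, squares for replicate 2 and crosses for the inhibitor genes. In the upper panel only Klhl9 and Focad rise above 15 counts; in the lower panel well-counted genes lie on both sides of Cdkn1c.

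Transcripts of Cdkn2c and Cdkn1b divided the reads between forms that encode the same protein. Cdkn2c-201 (1106 bases, 2 exons) held 86.63% of the gene's TPM in replicate 1 and 82.47% in replicate 2, while Cdkn2c-202 (2471 bases, 3 exons), which starts upstream and has a longer leader, held 13.37% and 17.53%. In counts the longer form weighed more, with 2779 and 2104 counts beside 7172 and 3896 for the short form, which put the short form at 68.5 ± 5.05% of counts. Both carry the 504 coding bases. For Cdkn1b, Cdkn1b-201 (2393 bases, 3 exons) held 68.1 ± 1.07% of the TPM and 51.8% of the counts, and Cdkn1b-202 (4552 bases, 2 exons), which keeps the sequence between the last exons as 3′ UTR, held the remainder; both have the same start and 591 coding bases.

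The pocket proteins were all transcribed, and Rb1 stood highest. Rb1 encodes pRB, the retinoblastoma protein, whose main partners are the activating E2Fs; loss of Rb1 in mice impairs red cell maturation. It (ENSMUSG00000022105.6, chr14:73183673-73325822, minus strand) stood at 11.84 TPM in replicate 1 and 11.61 TPM in replicate 2, a mean of 11.7 ± 0.163 TPM on 9714 and 6514 counts. Rbl2, which encodes p130, the pocket protein of resting cells that works with E2f4 in the DREAM complex, stood at 6.46 and 6.36 TPM on 3870 and 2539 counts (ENSMUSG00000031666.10, chr8:91070057-91123844, plus strand). Both genes varied little between the libraries, and Rb1 exceeded Rbl2 by a log2 TPM ratio of 0.87 ± 0.0041, or 1.83-fold.

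Rbl1 was the member whose replicates differed most. It encodes p107, the pocket protein of cycling cells. Rbl1 (ENSMUSG00000027641.9, chr2:157145893-157204534, minus strand) stood at 4.39 TPM in replicate 1 and 6.78 TPM in replicate 2 on 2979 and 3354 counts. Replicate 2, the library with fewer reads in all, had more reads on Rbl1, and the credible bounds of 4.18 to 4.60 TPM and 6.43 to 7.06 TPM did not overlap. Relative to Rbl2, Rbl1 was lower in replicate 1 (log2 TPM ratio -0.56) and slightly higher in replicate 2 (0.09), so the order of these genes is not fixed by the data. Rb1 exceeded Rbl1 2.70-fold in replicate 1 and 1.71-fold in replicate 2.

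To set the pocket protein with the larger replicate difference beside its paralog with a small one, the 250 bases before the RefSeq starts of Rbl1 (chr2:157204535-157204784, minus strand) and Rbl2 (chr8:91069807-91070056, plus strand) are given 5′ to 3′ on GRCm38.p6, with an E2F word in capitals.
Rbl1 promoter: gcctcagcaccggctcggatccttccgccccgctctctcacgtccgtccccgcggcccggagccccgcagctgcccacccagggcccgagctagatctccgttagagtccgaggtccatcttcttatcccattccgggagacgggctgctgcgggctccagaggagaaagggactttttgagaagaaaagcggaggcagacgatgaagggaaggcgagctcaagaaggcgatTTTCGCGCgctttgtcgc
Rbl2 promoter: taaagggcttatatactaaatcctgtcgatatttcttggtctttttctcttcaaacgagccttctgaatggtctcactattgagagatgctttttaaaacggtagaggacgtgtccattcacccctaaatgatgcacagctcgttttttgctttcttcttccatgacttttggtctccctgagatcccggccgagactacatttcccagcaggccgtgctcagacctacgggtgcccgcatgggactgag
The words searched on both strands were TTTCGCGC, TTTGGCGC, TTTCCCGC and TTTGCCGC for E2F, and AGATAA and TGATAA for GATA factors. None of the windows searched held both kinds, so matches do not overlap. Rbl1 carried TTTCGCGC, with the last letter 11 bases before its start. The Rbl2 window held none of these words. RefSeq windows were matched for 8 of the 10 genes, 11 windows in all. Rb1 and Cdkn1c had no window and were not searched. Of the 11 windows 2 held an E2F word, that of Rbl1 and that of the Arf start of Cdkn2a (TTTCCCGC, 92 bases before the start). None held a GATA word. Of all 32851 promoter windows, 1.86% held an E2F word and 16.6% a GATA word. Rbl1, with one match, had 2979 and 3354 counts, and Cdkn2a, with the other, had none.

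Transcripts annotated as retaining an intron took a large part of Rbl1 and, by counts, little of Rb1. Protein-coding Rbl1-201 held 49.09% of the gene's TPM in replicate 1 and 56.43% in replicate 2, and the retained-intron form Rbl1-202 held 45.42% and 39.00% on 892 and 814 expected counts. By counts the retained-intron forms of Rbl1 made up 27.8 ± 4.34%, and 10.9% of the 3879 protein-coding genes with such a transcript and a mean of at least 100 counts had a higher share. Rbl2 had 45.4 ± 1.44% of its TPM but 10.1 ± 0.0854% of its counts in retained-intron forms. Of those 3879 genes, 35.1% had a higher share than Rbl2 by counts and 9.02% by TPM. By TPM 7.89% had a higher share than Rbl1. The libraries were of total RNA, and whether these reads come from RNA not yet spliced was not tested. By TPM the largest of these were Rbl2-207 and Rbl2-202, which are 821 and 547 bases long beside the 4925 bases of Rbl2-201; Rbl2-201 had 89.9% of the counts. Rb1-201 held 88.3 ± 0.559% of the Rb1 TPM and 98.9% of its counts. Retained-intron forms of Rb1 had 1.04% of its counts, against a median of 5.89% over those 3879 genes, and 9.41 ± 2.69% of its TPM, against a median of 11.8%.

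**Figure D3:**
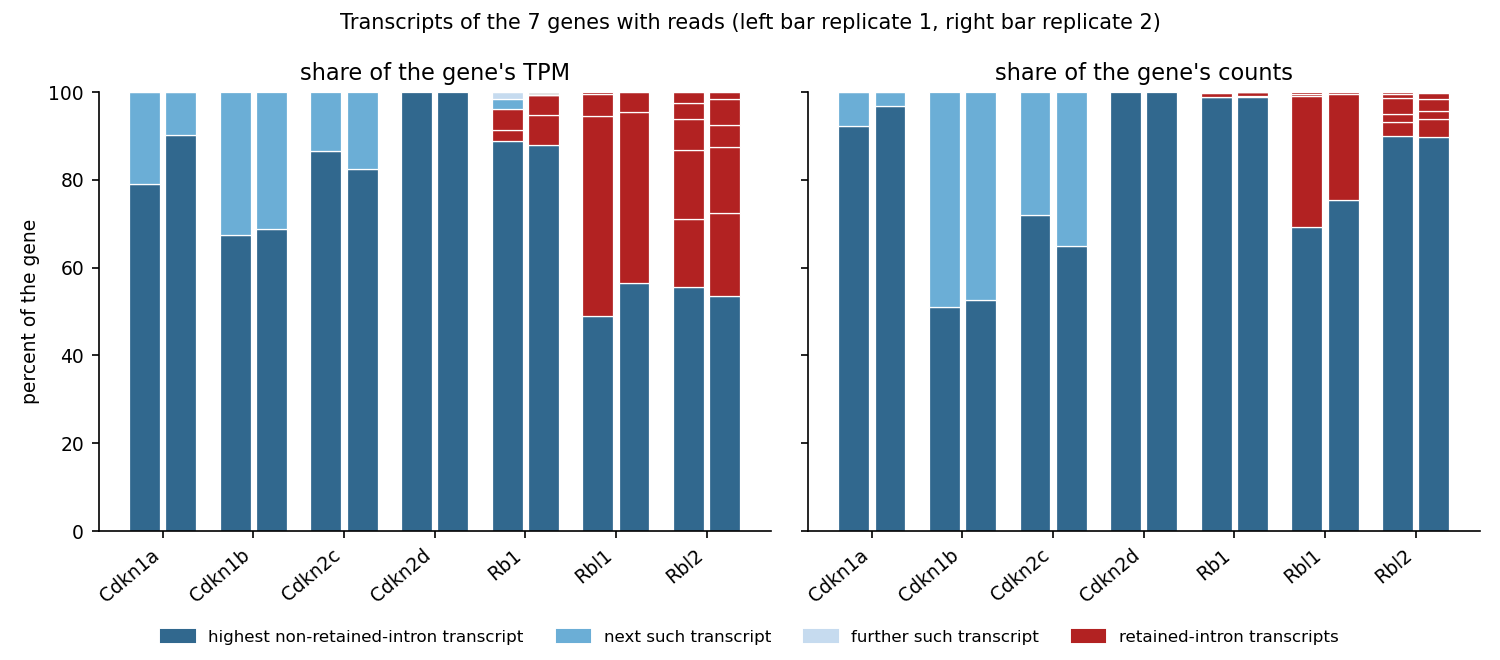
Share of each gene's TPM (left) and counts (right) held by its transcripts, in percent, for the 7 genes with reads, with the left bar of each pair for replicate 1 and the right bar for replicate 2. Red marks transcripts annotated as retained-intron and blue shades mark all others, Cdkn1b-202 among them. Red takes 43.57% to 50.9% of the Rbl1 TPM and 24.7% to 30.8% of its counts, while Rb1 is almost wholly blue in counts.

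The 2 forms of Rbl1 both stood higher in replicate 2: Rbl1-201 had 2.16 TPM in replicate 1 and 3.82 TPM in replicate 2, and Rbl1-202 had 1.99 and 2.64 TPM. Genes that overlap the pocket proteins took few reads, which bears on the counts because the sources used here do not give the use of strand. On the opposite strand of Rb1, Rcbtb2 stood at 0.91 TPM in both libraries and Lpar6 at 0.29 and 0.28 TPM; on its own strand Gm17233 stood at 0.45 and 0.37 TPM and Mir687 had 0 counts. Aktip, opposite Rbl2, stood at 1.02 and 0.66 TPM, and Gm14277, opposite Rbl1, at 0.09 and 0.20 TPM. Reads in the shared stretches cannot be told apart between the partners. The release used for coordinates also places AC167363.2 opposite Cdkn1a, Gm44732 opposite Cdkn1c and Gm45464 opposite Rbl2, and their levels were not analysed here.

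Between the replicates Rbl1 differed most and none of the 10 genes differed 2-fold. Genes with a mean of at least 100 counts were compared by the ratio of TMM-scaled CPM (counts relative to the library total), replicate 2 over replicate 1, and 0 of the 7 differed 2-fold or more, against 2.05% of 9777 genes (200 genes, of which 153 were higher in replicate 2 and 47 were lower). The log2 ratio was 0.22 for Cdkn1a, -0.21 for Cdkn1b, -0.16 for Cdkn2c, 0.0079 for Cdkn2d, -0.011 for Rb1, 0.74 for Rbl1 and -0.042 for Rbl2, with a median of -0.011 over the 7 and of -0.011 over all 9777 genes. Taken from TPM, the ratio of Cdkn1a was 0.073 and that of Cdkn2d, with its sign turned, was -0.0061. All of these but that of Rbl1 lie within the range from -0.47 to 0.59 that holds the middle 90% of all genes. The ratio of Rbl1 was 1.67, and 3.23% of the genes had a higher one.

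E2F target genes stood higher in replicate 2 as Rbl1 did. Of 12 such genes, all 12 had a log2 ratio above 0, against 48.2% of all genes compared. Their median was 0.97, and 4 of them passed 2-fold, against 2.05% of all genes compared. Rrm1, a subunit of ribonucleotide reductase, had 16.08 TPM in replicate 1 and 28.57 TPM in replicate 2, Mcm3, part of the replicative helicase, had 12.29 and 24.63 TPM, and Ccne1, the gene of cyclin E1, had 16.7 and 23.86 TPM. Of the 11 erythroid markers, 9, Gata1 among them, were also higher in replicate 2. Other lists leaned the same way by less, with 11 of 12 ubiquitin ligase parts (median 0.10) and 8 of 9 corepressors (median 0.097) higher. Cyclins and kinases did so in 7 of 9 cases (median 0.37) and MuvB and DREAM genes in 5 of 7. Upstream regulators (4 of 9) and other growth brakes (3 of 7) did not lean that way. The part of any of these genes in the Rbl1 difference was not tested.

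**Figure D4:**
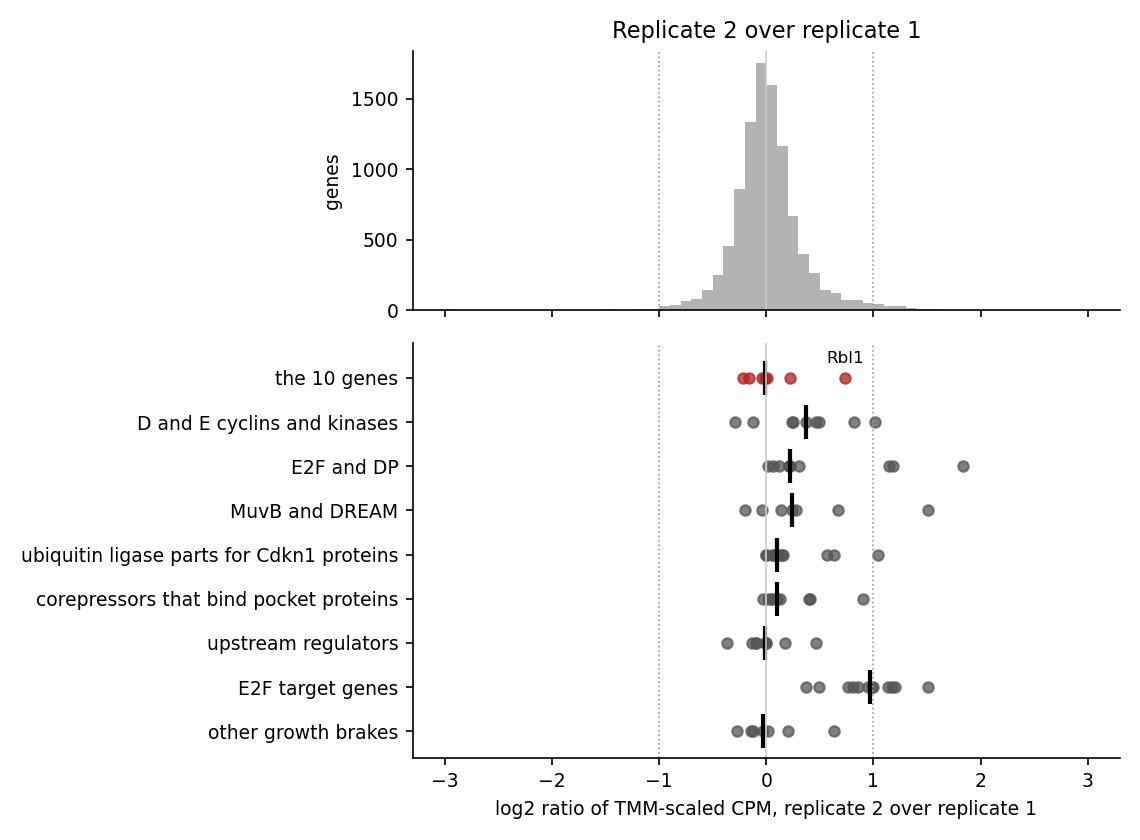
Log2 ratio of TMM-scaled CPM, replicate 2 over replicate 1, as a histogram of the 9777 genes compared (upper panel, values past 3 drawn at 3) and for each gene of the 10-gene set and of 8 pathway lists (lower panel), with a black bar at each list's median and dotted lines at 2-fold. Rbl1 at 0.74 stands apart from the 6 other genes of its set, and the E2F targets lie wholly to the right of 0.

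Cyclins and kinases that the inhibitors act on were present, with Cdk4 far above Cdk6. Of 10 genes for cyclins, CDKs and the CDK-activating phosphatase Cdc25a, 9 reached 1 TPM in both libraries. Cdk4 stood at 39.24 TPM in replicate 1 and 42.91 TPM in replicate 2, Ccna2, cyclin A2, at 28.73 and 49.03 TPM, and Ccnd3, the highest D cyclin, at 28.62 and 32.74 TPM. Ccnd1, cyclin D1, had 6 and 5 counts. Cdk6 stood at 1.6 and 1.53 TPM and Cdk2 at 5.21 and 7.04 TPM.

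Set against these partners, Cdkn2c and Cdk4 transcripts were close to equal. Their log2 TPM ratio was 0.19 in replicate 1 and -0.20 in replicate 2, so neither was higher in both libraries. The 4 INK4 genes summed against Cdk4 and Cdk6 gave a log2 ratio of 0.24 ± 0.23, a 1.18-fold excess about as large as its spread. Cdkn2c exceeded Cdk6 by 4.71 ± 0.13 on the log2 scale, or 26.1-fold; this log2 ratio was 3.26 with counts not divided by length and 4.03 with log2(TPM + 1). Cdkn1b exceeded Cdk2 5.97-fold (2.58 ± 0.47). Summed CIP/KIP transcripts were 0.768 times the summed INK4 transcripts, with an almost identical ratio in both libraries (log2 -0.38 ± 0.0012), but the direction turned, to log2 0.96, with counts not divided by length. These are ratios of RNA per length; protein was not measured.

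**Figure D5:**
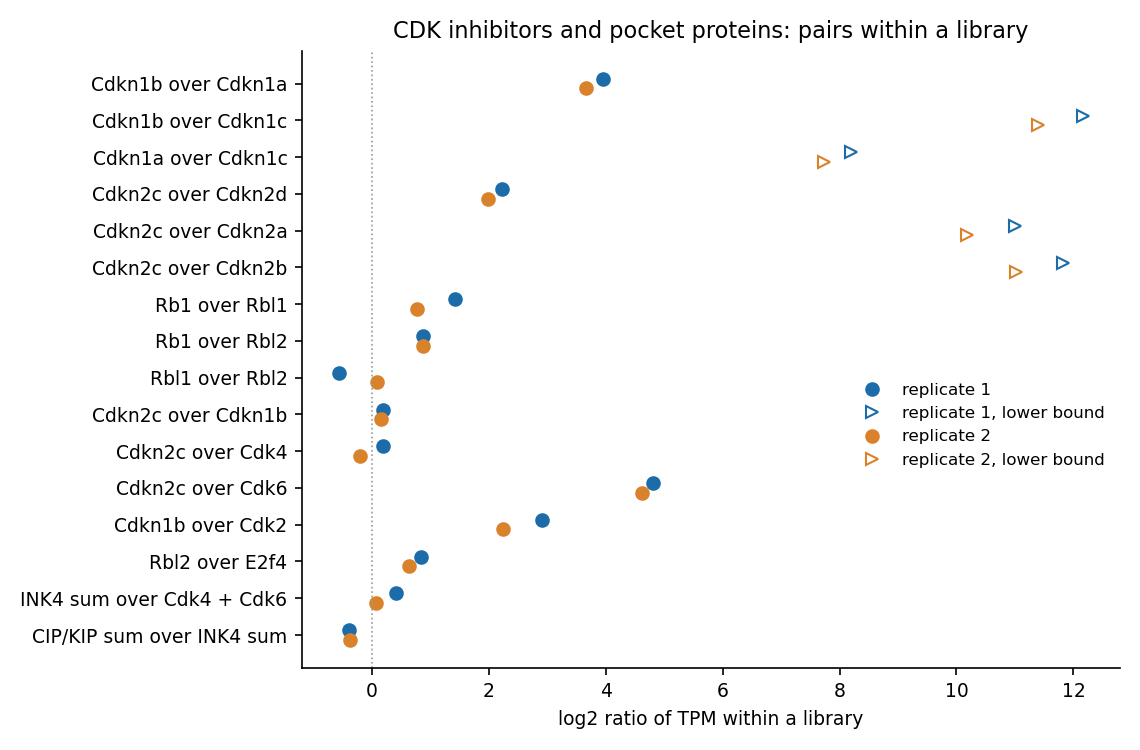
Log2 ratio of TPM within a library for 16 pairs or sums, with 1 point per replicate; open arrowheads are lower bounds, where the second gene had 0 counts and was set to 3 counts. Only Rbl1 over Rbl2 and Cdkn2c over Cdk4 have points on both sides of 0.

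Among E2F and DP genes, which include the partners of the pocket proteins, the DP subunits stood highest. Of 10, 9 reached 1 TPM in both libraries, against 36.3% of nuclear protein-coding genes, with a median of 1.99 TPM. Tfdp2 stood at 16.1 TPM in replicate 1 and 18.27 TPM in replicate 2, Tfdp1 at 11.0 and 12.66 TPM, and E2f4, the usual partner of p130, at 3.59 and 4.08 TPM. E2f7, an atypical E2F that represses, was under 1 TPM at 0.09 and 0.68 TPM. By TMM-scaled CPM all 10 were higher in replicate 2, against 48.2% of all genes compared. Of the 10, 3 were so by 2-fold or more, against 2.05% of all genes past 2-fold in either direction. E2f7, one of the 3, had 65 and 158 counts. By TPM E2f1 (1.36 and 1.35 TPM) and E2f3 (1.38 and 1.33 TPM) were slightly lower in replicate 2. Rbl2 exceeded E2f4 by a log2 TPM ratio of 0.74 ± 0.15, or 1.43 with counts not divided by length.

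The machinery around the 10 genes was broadly transcribed. Of 75 genes on 8 pathway lists, with Ccne1, Cdc25a and Mybl2 on more than one list, 69 reached 1 TPM in both libraries. Of nuclear protein-coding genes 36.3% did. All 7 MuvB and DREAM genes did, with Rbbp4, Dyrk1a and Lin54 highest, between 9.19 and 11.3 TPM. Of 9 corepressors that bind pocket proteins all 9 did, led by Sin3b at 27.4 and 25.98 TPM, Kdm5a at 15.5 and 17.42 TPM and Rbbp7 at 11.61 and 14.79 TPM. Ubiquitin ligase parts for the Cdkn1 proteins had a median of 17.6 TPM, with Ddb1 at 76.91 and 84.01 TPM, Cul4a at 59.45 and 59.72 TPM and Skp1a at 46.26 and 47.11 TPM. Skp2, the subunit that recognizes p27Kip1, was the one of these 12 under 1 TPM, at 0.38 and 0.67 TPM.

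Regulators upstream of the inhibitors reached 1 TPM in 9 of 10 cases. Mdm4 and Mdm2, which restrain p53, stood at 32.31 and 32.2 TPM and at 17.29 and 19.04 TPM. Bmi1, a Polycomb protein known in mice to keep Cdkn2a silent, stood at 15.49 and 14.81 TPM. The part of Bmi1 in the absence of Cdkn2a reads was not tested. Smad3 had 0.01 and 0.04 TPM. Among 8 other growth brakes, Btg2 stood at 89.05 TPM in replicate 1 and 79.91 TPM in replicate 2, Ccng1 at 45.3 and 50.96 TPM and Ccng2 at 36.76 and 36.22 TPM, all near or above Cdkn2c, while Gadd45b stood at 0.19 and 0.04 TPM. The log2 replicate ratios went both ways, between -0.37 and 0.46 with a median of -0.0098 for the 9 upstream regulators compared and between -0.27 and 0.63 with a median of -0.032 for the 7 brakes compared.

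Genes beside the transcribed members showed no common level. Gpr19, on the lower side of Cdkn1b, stood at 0.43 TPM in replicate 1 and 1.09 TPM in replicate 2, and Apold1, on the other side, at 0.15 and 0.18 TPM. Lockd, a long noncoding RNA that starts 3579 bases beyond the end of Cdkn1b and was chosen after its values were seen, stood at 20.86 TPM on 1028 counts in replicate 1 and 27.54 TPM on 882 counts in replicate 2. Its log2 replicate ratio was 0.34, opposite in sign to that of Cdkn1b. Around Cdkn1a, Srsf3 stood at 54.34 and 58.4 TPM and Rab44 at 2.61 and 2.38 TPM. Faf1, next to Cdkn2c, stood at 9.35 and 10.69 TPM, and 4930522H14Rik on its other side had 0 and 1 counts.

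Beside Cdkn2d, Ap1m2 had 0 counts in both libraries. Itm2b, beside Rb1, stood at 48.64 TPM in replicate 1 and 42.94 TPM in replicate 2, and Cysltr2 on the other side of Rb1 had 0 counts. Samhd1 and Mroh8 flank Rbl1 at 6.17 and 5.17 TPM and at 0.05 and 0.06 TPM. Chd9 and Rpgrip1l flank Rbl2 at 3.6 and 2.85 TPM and at 2.09 and 1.77 TPM. Of the neighbours of Rbl1, Samhd1 was lower in replicate 2 and Mroh8 had 16 and 14 counts, whereas Rbl1 was higher there.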

How the data were processed

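Total RNA was measured in 2 libraries of 1 group. The authors deposited a gene table and a transcript table for each, and per the file headers these hold expected counts, TPM, FPKM, posterior means and, per transcript, the percent of the gene's TPM. Credible bounds of TPM, a signal on the same scale, were deposited too; the sources used here do not give the interval's level, nor the program, the aligner or the use of strand. Text files deposited beside the tables name mm10 as the assembly and M4 as the GENCODE release.

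Symbols, biotypes and coordinates came from GENCODE M21 (GRCm38), joined on identifiers without version; 42462 of 43346 Ensembl genes matched, and of 30 transcripts of the 10 genes 23 had the same length in both annotations. Effective length enters TPM, so a level depends on the annotated transcripts. TPM under 0.1 was recomputed from count and effective length for ratios. A gene without reads was set to a floor of 3 counts; floors and bounds cover counting error only. Replicate ratios used TMM factors of edgeR 4.0.16 (0.989 and 1.01; R 4.3.3), a prior count of 0.5 and a mean count of at least 100; DESeq2 1.42.0 size factors were an alternative. TMM and the ratio were run on simulated data with known answers. As many genes were raised as lowered there, so the handling of a one-sided shift by TMM was not tested. Other steps used Python 3.11 and pandas 2.3.3. Nuclear protein-coding genes hold a small part of the TPM; a factor of 7.09 for replicate 1, or 6.95 for replicate 2, converts a value to a scale on which they make up all of it.

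With 1 group no condition was tested; an exact two-sided sign-flip test of 2 pairs cannot go below 0.5, and no p was computed. The genes named are the 10 members, those of the pairs, the 3 highest of each list and any under 1 TPM, genes overlapping or next to a member, and transcripts with at least 10% of a member's TPM; Lockd and the genes named in the windows around Cdkn2a and Cdkn1c, Klhl9, Focad and Kcnq1ot1, were chosen after their values were seen. A gene that the rule takes is not reported here. Members and lists were chosen with earlier results of these data known. Alternatives were other normalizations, thresholds and units, counts not divided by length, a pseudocount, no count filter and leaving out each replicate.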

Additional observations from a re-analysis of the deposited data

How the results depend on the processing

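No paired analysis was possible because the series analysed here has 1 group. Of 82 values recomputed under an alternative, 54 moved by less than the spread between replicates (counts of genes, by under 1.5 times), 23 moved by more and 5 changed sign. Values without a replicate or in FPKM are not among these: with 2 replicates, leaving out 1 cannot move a mean by more than the SD, and FPKM is proportional to TPM within a library. Of the values without a replicate, 2 changed sign. The number of genes at 1 TPM was 7 of 10 in every alternative except 5 TPM, which left 5; of the pathway genes, 44 reached 5 TPM, against 69 at 1 TPM. Without the count filter 8560 of 20990 genes with reads differed 2-fold, against 200, because genes with few reads enter; with DESeq2 size factors the number was 200 and with TPM 241, and none of the 10 genes was among the genes past 2-fold in these alternatives.

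Counts not divided by length changed the log2 pair ratios to 4.73 for Cdkn1b over Cdkn1a, 1.34 for Rb1 over Rbl2, 0.51 for the INK4 sum over Cdk4 and Cdk6, 3.26 for Cdkn2c over Cdk6, 1.43 for Rbl2 over E2f4 and, with a change of sign, to 0.012 for Rbl1 over Rbl2, -1.20 for Cdkn2c over Cdkn1b, 0.41 for Cdkn2c over Cdk4 and 0.96 for CIP/KIP over INK4, since longer transcripts give more reads. With log2(TPM + 1) Cdkn1b over Cdkn1a was 3.38, Cdkn2c over Cdk6 4.03 and Rb1 over Rbl2 0.78, and with posterior means Rb1 over Rbl2 was 0.87. Leaving out a replicate gave -0.557 to 0.0923 for Rbl1 over Rbl2 and -0.20 to 0.19 for Cdkn2c over Cdk4. The replicate ratio of Cdkn2d was -0.0061 with TPM. With 2 libraries of 1 group, the SD rests on a single difference, and the depth, 41051158 counts in the shallower library, sets the floors of the 3 genes without reads.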
